A study of Cucumis melo with 6 samples.

Results

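Isolated genes, here meaning genes with at least 30 kb free of any annotated gene on both sides, were examined in melon leaves. The gene span was taken from the lowest exon start to the highest exon end, and a gene needed a flanking gene on both sides of its chromosome. Of 28299 annotated genes, 434 met this limit on chromosomes 1 to 12, and no expression value took part in the choice. The comparison group was 11170 crowded genes, which had another gene within 5 kb on both sides. An overlapping gene counted as within 5 kb on the side where it overlapped.

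The study sequenced polyadenylated RNA from leaves of Cucumis melo, a Charentais-type cantaloupe, in 2 genotypes with 3 libraries each. The first was the monoecious inbred line CharMONO, the wild type (WT), and the second was the double mutant lhp1ab in the same line. According to the labels, lhp1ab carries mutations induced by the chemical mutagen EMS in both CmLHP1 genes, G1970A in Cmlhp1a and C1930T in cmlhp1b, as genomic positions counted from the start codon. All plants shared glasshouse conditions of 16 h light at 27 °C and 8 h dark at 21 °C with 60% relative humidity, and the sources used here do not give how many plants a library came from, how old they were or whether 1 or several mutant lines were used. The replicates are called biological in the series, and p-values below measure the spread between these samples. In leaf RNA, fewer cells expressing a gene and less RNA per cell cannot be told apart.

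Plant chromosomes usually carry most of their genes on the outer arms, while the stretches around the centromere hold few genes among many repeats. Such repeat-rich chromatin is compacted in Arabidopsis by DNA methylation and methylation of histone H3 at lysine 9. Polycomb silencing is another system, which marks individual genes with trimethylation of histone H3 at lysine 27, and LHP1 of Arabidopsis reads this mark through its chromodomain. Genes in gene-poor stretches thus lie in other surroundings than genes of the arms, and the comparison below asks how often they were silent, how strongly they were expressed and how they differed between the genotypes.

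Each library held between 15335390 and 22366054 counts, with the WT libraries the deeper ones. Where a gene had 0 counts in a library, as many as 3 cannot be told from none, a limit of 0.134 to 0.146 CPM (the counts-per-million scale) for the WT and 0.170 to 0.196 CPM for the lhp1ab libraries that covers counting error only. A 0 also means that no read of mapping quality 30 or more was assigned. Over the tested isolated genes, Pearson's r of log2 CPM was 0.991 to 0.997 between libraries of a genotype and 0.828 to 0.838 between genotypes, across genes that are no independent replicates. The gene models carry identifiers of an automated annotation on melon genome release 4.0, none of which is paired with a gene name in the files, so they are described by position, structure and expression. For the same reason the mutated genes themselves could not be followed in the libraries.

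The isolated genes lay mainly in the inner parts of the chromosomes. When every chromosome was divided into 5 equal parts between its first and its last gene, the middle part held 150 isolated genes, the second 124 and the fourth 97. Only 31 lay in the first part and 32 in the last. The 3 inner parts together held 85.5% of isolated genes, 23.6% of crowded genes and 43.1% of all genes. The outermost 10% at both ends together held 12 isolated genes. Within 500 kb to each side of its midpoint, an isolated gene had a median of 47 genes including itself, against 124 for crowded and 91 for all genes. The surroundings of isolated genes were therefore gene-poor in the median, yet 86 of them had 60 or more genes within that window and the richest window held 110. The smaller of a gene's 2 gaps had a median of 37.6 kb among isolated genes and 1.44 kb among all genes.

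The number of isolated genes differed between chromosomes. Chromosomes 8 and 10 held the most, with 53 each, which was 2.04% and 2.98% of their genes. Chromosome 9 held the fewest, 18 or 0.889% of its genes. On chromosome 1, 41 isolated genes lay between 5.18 and 27.7 Mb, and the densest 1 Mb window, from 21 to 22 Mb, held 7 of them among 38 genes. Chromosome 2 had 41 between 4.71 and 23.6 Mb, with 7 in the window from 13 to 14 Mb. Chromosome 3 had 37 between 2.61 and 21.8 Mb, with a median position of 11.2 Mb. On chromosome 4 there were 28 from 4.41 to 25.4 Mb, and on chromosome 5 there were 42 from 3.33 to 22.9 Mb. On chromosome 6, 41 were spread from 8.07 to 35.4 Mb, close to the last gene at 36.1 Mb. Chromosome 7 carried 28 from 3.12 to 23.2 Mb. The isolated genes of chromosome 8 reached from 7.29 to 32.2 Mb, with 7 in each of the windows starting at 11 and 17 Mb. Those of chromosome 9 ended at 15.2 Mb, although genes continued to 23.9 Mb. On chromosome 10 they ranged from 7.14 to 24.3 Mb and none lay in the first of the 5 parts. Chromosome 11 had 30 from 5.11 to 25.5 Mb. The 22 on chromosome 12 ended at 13.5 Mb, near the middle of a chromosome whose last gene ended at 26.1 Mb.

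**Figure D1:**
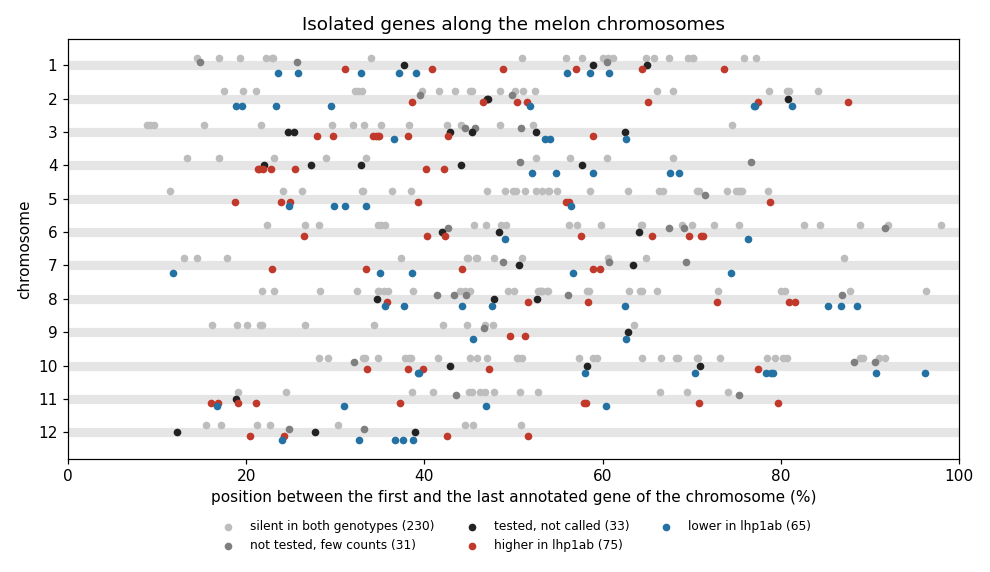
Each point is 1 of the 434 isolated genes, placed by its position in percent between the first and the last annotated gene of its chromosome, with the state in leaf given by colour and by a small vertical offset. Most points lie between 20 and 80%, where 85.5% of isolated genes were found, and silent genes and genes changed in either direction lie along the same stretches.

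More isolated than crowded genes were silent in the leaf. Libraries were thinned to 15335390 counts each, and a gene was called silent in a genotype where none of its 3 libraries held more than 1 count. In WT 234 of 434 isolated genes (53.9%) were silent, against 19.9% of crowded genes and 30.1% of all genes. In lhp1ab 239 isolated genes (55.1%) were silent, against 19.1% of crowded and 29.1% of all genes. Silence in both genotypes concerned 230 isolated genes, and 206 of them had no count in any library before thinning. Reads below a mapping quality of 30 were not counted, so a gene without counts need not lack RNA. Only 4 isolated genes were silent in WT alone and 9 in lhp1ab alone, and each of these had at most 10 thinned counts in every library. These shares compare fixed lists of genes, which are no replicates, so no test between the lists was made.

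No isolated gene was switched on or off between the genotypes. The limit for a switch was at least 10 thinned counts in every library of one genotype and at most 1 in every library of the other. Over all genes 97 were switched on in lhp1ab (0.343%) and 20 switched off (0.0707%). With genes treated as independent, which they are not, 0 among 434 isolated genes allows a share of up to 0.691% by the limit of 3 counts. Both shares over all genes lie within it, so the 0 does not set isolated genes apart. Genes silent in both genotypes, 53.0% of isolated and 27.3% of all genes, are counted in these shares but cannot meet the limit for a switch. A pair of isolated genes missed this limit through WT replicate 3 and met it without that library. The first, maker-Chr6-exonerate_est2genome-gene-256.6 (chromosome 6, 25671250 to 25674884, plus strand, 9 exons), had 1, 1 and 4 counts in the WT libraries and 46, 36 and 38 in lhp1ab. The second, maker-Chr9-exonerate_est2genome-gene-122.13 (chromosome 9, 12282101 to 12282721), had 1, 3 and 7 counts in WT and 20, 27 and 19 in lhp1ab. Both were named after their values were seen, and in both every mutant library was above every WT library. Isolated genes that reached 10 thinned counts in a library numbered 166 ± 1.00 in WT and 167 ± 1.00 in lhp1ab (SD, n = 3), a difference of 1 gene within the spread between libraries (exact permutation test, two-sided, p = 0.5).

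Silence rose with the distance to the nearest gene and levelled off before the 30 kb limit. Among genes whose smaller gap was up to 1 kb, 16.5% were silent in both genotypes. The share was 20.8% at 1 to 5 kb, 38.1% at 5 to 10 kb, 46.3% at 10 to 20 kb and 51.5% at 20 to 30 kb. Within the isolated genes it was 52.0% at 30 to 50 kb and 56.9% of 65 genes at 50 to 100 kb. Both genes beyond 100 kb were silent. Genes that overlapped or touched another gene did not follow this order, with 32.7% silent. Isolated genes were shorter and had fewer exons than crowded ones. Their summed exon length had a median of 663 bases against 1249, and 39.9% had a single exon against 24.9%.

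Exon length and silence went together in all groups. The limit for silence was a count not scaled by length, so a shorter gene can meet it at a higher level per length. How much of the relation this makes up was not tested. Of 176 isolated genes with under 500 bases of exon, 87.5% were silent in both genotypes, compared with 49.9% of crowded genes of this length. At 500 to under 1000 bases the shares were 57.3% and 24.6%, and at 1000 to under 2000 bases 20.6% and 4.89%. None of 60 isolated genes with 2000 bases or more was silent, and 1.24% of such crowded genes were. With genes treated as independent, 0 of 60 allows up to 5% by the limit of 3 counts. Exon number and silence did not go together in the same way in every length class. Between 500 and 1000 bases, 8 of 28 single-exon isolated genes were silent and 47 of 68 with several exons, whereas under 500 bases the shares were 88.8% and 84.3%.

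Crowded genes and all genes were silent more often in the inner than in the outer chromosome parts, and isolated genes were not. In the 3 inner parts of the chromosomes, 51.8% of isolated genes were silent in both genotypes, against 38.3% of crowded genes and 43.3% of all genes there. In the first and the last part, 64.5% and 56.2% of isolated genes were silent, against 10.4% and 10.9% of crowded genes. The crowded genes of the inner parts had a median exon length of 670 bases and the isolated ones of 707. Under 500 bases of exon, the inner parts had 88.3% silent among isolated, 63.8% among crowded and 77.6% among all genes. At 1000 to under 2000 bases these shares were 20.7%, 11.2% and 16.5%. Where the window of 1 Mb around a gene held 40 to 59 genes, 53.0% of isolated genes and 49.6% of all genes were silent. Where it held fewer, from 20 to 39, 51.5% of isolated and 57.0% of all genes were. Where it held 60 or more, 54.7% of 86 isolated genes were silent and 19.2% of all genes. The silent share of isolated genes was thus much the same at all 3 densities, while that of all genes fell with density. How length and position each bear on silence was not tested.

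**Figure D2:**
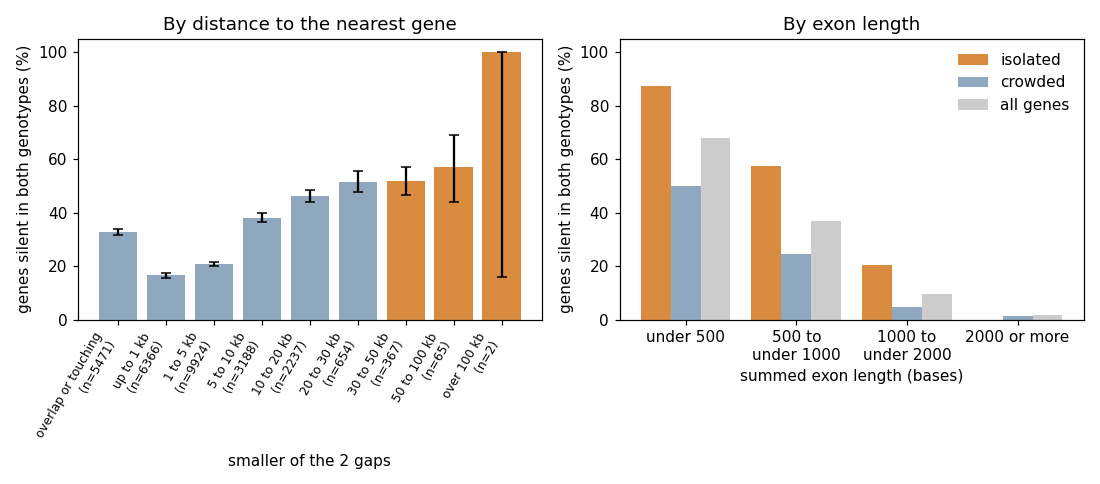
Bars give the percentage of genes silent in both genotypes, on the left by the smaller of a gene's 2 gaps (gaps over 30 kb in orange, smaller ones in blue, exact 95% binomial intervals that treat genes as independent) and on the right by summed exon length for isolated, crowded and all genes. The share rises from 16.5% at gaps up to 1 kb to 52.0% at 30 to 50 kb, and in each length class under 2000 bases isolated genes have the tallest bar.

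Per length, detected isolated genes had a slightly lower median level than detected crowded genes. The level is given as RPKM, the CPM divided by the summed exon length in kb. Over isolated genes with at least 10 thinned counts in a library, the median was 10.58, 10.48 and 10.80 RPKM in the WT libraries and 10.7, 11.7 and 12.2 RPKM in lhp1ab. Crowded genes had medians of 12.8 to 12.9 RPKM in WT and 11.9 to 12.5 RPKM in lhp1ab. In each of the 6 libraries the median of isolated genes was below that of crowded genes. Without division by length the order turned in lhp1ab, with a median of 20.6 CPM for isolated and 20.1 CPM for crowded genes, against 18.4 and 21.1 CPM in WT. Among tested genes of the 3 inner chromosome parts the medians were 11.4 and 11.5 RPKM. Between the genotypes, the median of isolated genes was 10.6 ± 0.164 RPKM in WT and 11.5 ± 0.769 RPKM in lhp1ab (SD, n = 3), a difference of 0.907 RPKM that did not pass the two-sided exact permutation test (p = 0.2, where 0.1 is the smallest possible). By the mean over the 6 libraries, 67 isolated genes had a level above 0 but under 1 RPKM, 70 had 1 to 10 RPKM, 82 had 10 to 100 RPKM and 9 had 100 RPKM or more.

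A few isolated genes held much of their summed counts. The 3-exon gene model maker-Chr3-exonerate_est2genome-gene-183.4 (chromosome 3, 18339620 to 18342071, plus strand) was the most abundant, with 775, 783 and 799 RPKM in WT and 294, 286 and 284 RPKM in lhp1ab. The genotypes did not overlap, and the log2 fold change was -1.40 (SE 0.060, edgeR adjusted p = 5.07e-09). It was also the only isolated gene among the 150 most abundant genes of WT leaves. Second came the 11-exon maker-Chr6-exonerate_est2genome-gene-152.22 (chromosome 6, 15272903 to 15276396, minus strand), with 328, 332 and 350 RPKM in WT and 581, 569 and 527 RPKM in lhp1ab. Here all mutant libraries were above all WT libraries, with a log2 fold change of 0.78 (SE 0.067, edgeR adjusted p = 1.24e-06).

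Of the other 4 genes among the 6 with the highest RPKM, 2 fell, 1 rose and 1 was not called. The 3-exon maker-Chr1-exonerate_est2genome-gene-210.25 (chromosome 1, 21013798 to 21016270) went from 320 RPKM in WT to 142 RPKM in lhp1ab and had a log2 fold change of -1.12. On chromosome 12, maker-Chr12-exonerate_est2genome-gene-95.27 (9571926 to 9586027, 10 exons) went from 175 to 135 RPKM, a log2 fold change of -0.32. The chromosome 3 gene maker-Chr3-exonerate_est2genome-gene-87.20 (8711437 to 8713977, 4 exons) went from 265 to 337 RPKM, a log2 fold change of 0.40. For maker-Chr7-exonerate_est2genome-gene-134.18 (chromosome 7, 13451281 to 13453655, 4 exons) the levels were 302 RPKM in WT and 266 RPKM in lhp1ab (log2 fold change -0.13, edgeR adjusted p = 0.0892). This gene passed the threshold with library totals as the only scaling and without lhp1ab replicate 1.

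The share of all counts held by isolated genes depended on the most abundant of them. It was 0.900%, 0.909% and 0.908% in the WT libraries and 0.857%, 0.878% and 0.876% in lhp1ab. All mutant libraries lay below all WT libraries, with a difference of the means of -0.0353 percentage points (exact permutation test, two-sided, p = 0.1, the smallest that 3 against 3 libraries can give). The difference shrank to -0.0039 points with totals scaled by TMM, the scaling of the edgeR fit (exact permutation p = 0.6). Without the 20 most abundant of all genes it was -0.0085 points (exact permutation p = 0.2). The gene model maker-Chr3-exonerate_est2genome-gene-183.4 alone held 15.96 to 16.3% of the counts of isolated genes in WT and 6.0 to 6.36% in lhp1ab. Another abundant model 46.1 kb before it, maker-Chr3-exonerate_est2genome-gene-183.0, held 5.74 to 6.73% in WT and 4.83 to 6.23% in lhp1ab. Without maker-Chr3-exonerate_est2genome-gene-183.4 the order turned, with 0.756% to 0.764% in WT and 0.803% to 0.825% in lhp1ab, a difference of 0.0570 percentage points (exact p = 0.1, again the smallest possible). The 10 most abundant isolated genes of each library held 52.1% ± 0.101 of the counts of isolated genes in WT and 43.6% ± 0.911 in lhp1ab (SD, n = 3). Among crowded genes the 10 most abundant held 8.86% and 10.1%, but 10 genes are a far smaller part of 11170 crowded than of 434 isolated genes. These shares therefore do not show whether counts were more concentrated in isolated genes.

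**Figure D3:**
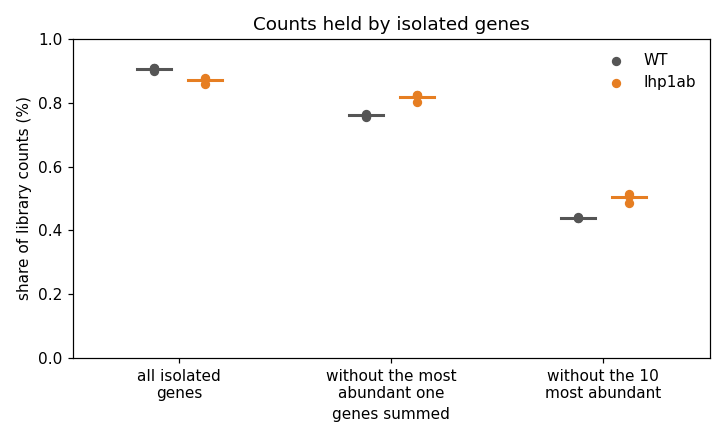
Points are libraries and bars their means, and the vertical axis gives the percentage of a library's counts held by isolated genes. With all isolated genes the lhp1ab libraries (0.857 to 0.878%) lie below WT (0.900 to 0.909%), and without the most abundant one they lie above it.

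Most tested isolated genes differed between the genotypes, in both directions. Only 173 isolated genes passed the filter on low counts, and 261 were left out, 230 of which were silent in both genotypes. Of the 173, 75 (43.4%) were higher in lhp1ab and 65 (37.6%) lower, leaving 33 without a call by edgeR's quasi-likelihood test at a threshold of 0.05, with Benjamini-Hochberg adjustment over all 17988 tested genes. The background of called genes was 75.5% over all tested genes, with 36.9% higher and 38.5% lower. For isolated genes the called share was 80.9%, near that background. For crowded genes it was 73.2%, and 76.6% for those that overlap no other gene. The libraries of both genotypes did not overlap in 141 tested isolated genes (81.5%), against 77.5% of all tested genes. The median log2 fold change was 0.055 for isolated, -0.039 for crowded and -0.019 for all tested genes, and the median size of the change regardless of sign was 0.68, 0.56 and 0.60.

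Changes of at least 2-fold were called upward in 40 isolated genes (23.1% of those tested) and downward in 23 (13.3%). The background was 16.7% upward and 14.4% downward over all tested genes, and crowded genes had 14.1% and 13.8%. Beyond 4-fold there were 14 isolated genes upward (8.09%) and 8 downward (4.62%), near the backgrounds of 6.87% and 5.08%. Beyond 16-fold there were 4 upward (2.31%) and 0 downward, where the background was 1.86% and 0.817%. All tested genes thus also rose more often than they fell at each of these sizes. In the test against a change of 1.5-fold, 46 isolated genes passed upward (26.6%) and 30 downward (17.3%), with backgrounds of 20.9% and 19.3%. Among single-exon isolated genes, 13 of 36 tested had risen (36.1%) and 4 had fallen (11.1%) by 2-fold or more, where all tested single-exon genes had 24.6% and 16.4%. Among isolated genes with several exons the shares were 19.7% and 13.9% of 137, where all such tested genes had 15.2% and 14.1%. In the 3 inner chromosome parts, 24.2% of tested isolated, 12.8% of tested crowded and 15.4% of all tested genes were at least 2-fold higher, and 13.1%, 12.4% and 13.4% at least 2-fold lower. The counts at 2-fold lay between 37 and 41 upward and between 22 and 26 downward in all other fits and with each library left out.

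Calls of isolated genes were spread over expression levels. With a mean of 1 to 10 CPM, 77.8% of 54 tested isolated genes were called, compared with 64.2% of crowded and 68.6% of all genes of that level. With 10 to 100 CPM the shares were 83.3% of 90 isolated, 77.7% of crowded and 78.6% of all genes. With 100 CPM or more they were 80.0% of 20 isolated, 84.2% of crowded and 85.7% of all genes. In the highest class 8 isolated genes were higher and 8 lower in the mutant. Every chromosome held isolated genes of both directions.

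**Figure D4:**
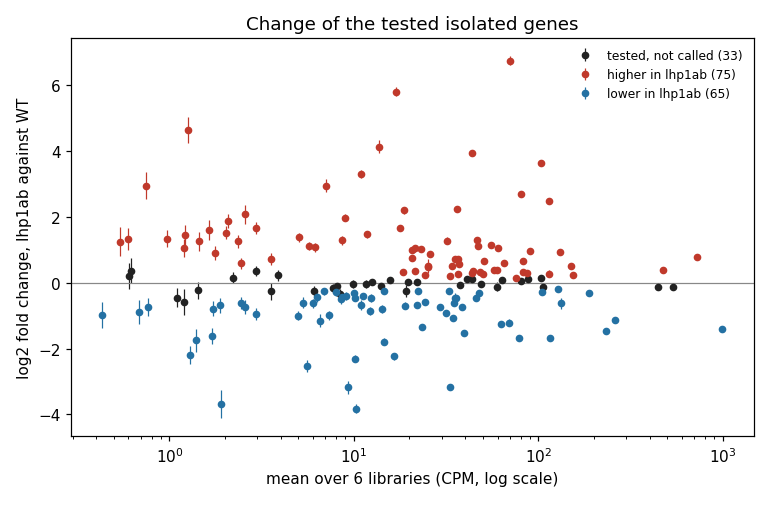
Points are the 173 tested isolated genes, with the mean over 6 libraries in CPM on a log axis, the log2 fold change of lhp1ab against WT on the vertical axis and bars for its standard error. Called genes lie on both sides of 0 at all levels, and the changes reach from -3.83 to 6.75.

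Rises and falls were ranked among called isolated genes whose higher genotype averaged 5 CPM or more and whose genotypes did not overlap, and the 6 largest of each are described. The single-exon model maker-Chr7-exonerate_est2genome-gene-89.24 (chromosome 7, 8891356 to 8892075, minus strand) stood at 1.12, 1.11 and 1.74 CPM in the WT libraries and at 150, 137 and 131 CPM in lhp1ab. It lay 40.2 kb and 54.5 kb from its neighbours and was weakly expressed in every WT library, and it rose 108-fold (log2 fold change 6.75, SE 0.14, edgeR adjusted p = 4.57e-11). Another single-exon model, maker-Chr4-exonerate_est2genome-gene-139.8 (chromosome 4, 13957162 to 13958160, minus strand), had 0.633, 0.675 and 0.536 CPM in WT and 36.3, 31.3 and 32.3 CPM in lhp1ab. It rose 55.8-fold, from 12 to 14 counts per WT library to 495 to 604 per mutant library (log2 fold change 5.80, SE 0.14, edgeR adjusted p = 1.17e-10).

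The 6-exon maker-Chr12-exonerate_est2genome-gene-63.22 (chromosome 12, 6337581 to 6343227, plus strand) had 0.876, 1.93 and 1.74 CPM in WT and 21.6, 29.0 and 26.9 CPM in lhp1ab. Its right-hand gap of 143 kb was among the wide ones, and it rose 17.5-fold (log2 fold change 4.13, SE 0.19, edgeR adjusted p = 9.11e-09). For maker-Chr4-exonerate_est2genome-gene-71.0 (chromosome 4, 7100999 to 7103469, plus strand, 3 exons) the values were 5.60, 5.54 and 5.41 CPM in WT and 86.0, 75.4 and 84.8 CPM in lhp1ab. This is a rise of 15.4-fold with little spread within WT (log2 fold change 3.94, SE 0.087). The third single-exon model of this group, maker-Chr5-exonerate_est2genome-gene-69.4 (chromosome 5, 6930540 to 6932540, minus strand), was the most abundant of the 6 in the mutant, with 186, 196 and 188 CPM against 14.7, 16.7 and 15.6 CPM in WT. It rose 12.6-fold (log2 fold change 3.65, SE 0.072). The 14-exon maker-Chr9-exonerate_est2genome-gene-118.29 (chromosome 9, 11871499 to 11878514, minus strand) rose 9.84-fold, from 2.53, 1.69 and 2.01 CPM to 18.9, 20.6 and 19.7 CPM. The fourth isolated gene past 16-fold, maker-Chr6-exonerate_est2genome-gene-256.6, had a larger fold than 4 of these 6 but reached only 2.43 CPM in lhp1ab and rested on 6 WT counts in all (log2 fold change 4.64, SE 0.39, edgeR adjusted p = 1.11e-06).

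Compared rank by rank, falls chosen in the same way were smaller than these rises, although the largest fall exceeded the smallest rise. The 13-exon maker-Chr2-exonerate_est2genome-gene-50.12 (chromosome 2, 5074999 to 5084299, plus strand) had 18.6, 19.0 and 20.4 CPM in WT and 1.32, 1.59 and 0.978 CPM in lhp1ab. All WT libraries were far above all mutant libraries, and the fall was 14.2-fold (log2 fold change -3.83, SE 0.14, edgeR adjusted p = 1.64e-09). The 2-exon maker-Chr2-exonerate_est2genome-gene-79.72 (chromosome 2, 7941591 to 7942535, minus strand) had 16.64, 13.40 and 20.03 CPM in WT and 1.74, 1.47 and 2.15 CPM in lhp1ab. Its WT libraries varied more, and the log2 fold change was -3.18 (SE 0.20, edgeR adjusted p = 8.80e-08).

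The 8-exon maker-Chr5-exonerate_est2genome-gene-72.0 (chromosome 5, 7209670 to 7213832, plus strand) was the most abundant of the falling genes, with 62.3, 58.2 and 59.8 CPM in WT and 6.37, 7.03 and 5.74 CPM in lhp1ab. It fell 9.06-fold and lay downstream, in map order, of the rising single-exon gene of chromosome 5 described above. The single-exon maker-Chr1-exonerate_est2genome-gene-118.0 (chromosome 1, 11795192 to 11796590, plus strand) went from 10.51, 8.72 and 9.52 CPM to 2.04, 1.53 and 1.17 CPM, a fall of 5.79-fold. On chromosome 10, maker-Chr10-exonerate_est2genome-gene-199.13 (19947383 to 19951402, plus strand, 4 exons) had 15.8, 17.4 and 17.9 CPM in WT and 3.31, 3.00 and 3.72 CPM in lhp1ab, a fall of 4.93-fold. The 6-exon maker-Chr11-exonerate_est2genome-gene-193.0 (chromosome 11, 19297825 to 19302192, plus strand) went from 27.5 ± 1.30 CPM to 5.67 ± 1.02 CPM (SD, n = 3) and fell 4.70-fold. A larger fall than 5 of these 6 was that of maker-Chr3-exonerate_est2genome-gene-156.92 (chromosome 3, 15673616 to 15674040), which stayed under the 5 CPM limit with 56, 79 and 92 counts in WT and 3, 1 and 9 in lhp1ab (log2 fold change -3.68, SE 0.42, edgeR adjusted p = 1.42e-05). For none of the 12 genes chosen by this limit did another fit or a left-out library change the direction or the call.

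**Figure D5:**
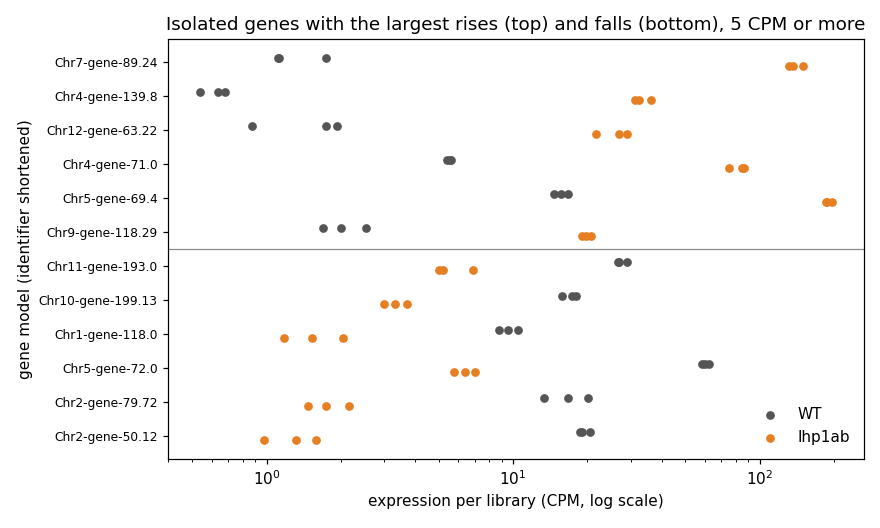
Points are the 3 WT and 3 lhp1ab libraries of the 6 isolated genes with the largest rises (above the line) and the 6 with the largest falls (below it) among those with at least 5 CPM in the higher genotype, in CPM on a log axis. The genotypes do not overlap in any of the 12 genes, and the chromosome 7 gene spans the widest range, between 1.11 and 150 CPM.

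The most isolated genes were mostly silent. The 4 with the widest smaller gap included maker-Chr10-exonerate_est2genome-gene-168.14 (chromosome 10, 16853002 to 16853307), with gaps of 138 kb and 116 kb, and the 10-exon maker-Chr2-exonerate_est2genome-gene-89.13 (chromosome 2, 8891585 to 8895933), with 109 kb and 132 kb. Both had no count in any library, as had the single-exon maker-Chr5-exonerate_est2genome-gene-154.26 (chromosome 5, 15477276 to 15477477). The other one, maker-Chr6-exonerate_est2genome-gene-237.3 (chromosome 6, 23696775 to 23700131, plus strand, 5 exons), lay 97.2 kb and 100.4 kb from its neighbours and was expressed at 28.0, 27.3 and 29.3 CPM in WT and 39.8, 49.3 and 45.8 CPM in lhp1ab. All mutant libraries were above all WT libraries, and it rose with a log2 fold change of 0.72 (SE 0.076, edgeR adjusted p = 6.56e-06).

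Of the next 3 detected genes by gap width, 2 rose and 1 fell. The 8-exon maker-Chr7-exonerate_est2genome-gene-117.1 (chromosome 7, 11749033 to 11755493) rose from 3.75, 3.62 and 4.74 CPM to 8.12, 8.10 and 8.41 CPM. The 2-exon maker-Chr5-exonerate_est2genome-gene-162.18 (chromosome 5, 16264206 to 16266912) rose from 1.56, 1.06 and 1.16 CPM to 2.04, 2.32 and 2.48 CPM (log2 fold change 0.90, edgeR adjusted p = 0.00252), and it did not pass against a change of 1.5-fold (adjusted p = 0.0606). The third was the falling maker-Chr10-exonerate_est2genome-gene-199.13. Among all 67 isolated genes with gaps of at least 50 kb, 23 were tested, of which 13 were higher, 5 lower and 5 not called. The called share of 78.3% was near the 75.5% of all tested genes, of which 36.9% were higher and 38.5% lower. The median log2 fold change of the 23 was 0.78. At gaps of 30 to 50 kb 62 were higher and 60 lower of 150 tested, with a median of -0.0097. When all genes were classed by the larger of both gaps, the medians were 0.044 at 50 to 100 kb (219 higher, 199 lower) and -0.11 over 100 kb (27 higher, 31 lower).

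Silent and expressed genes occurred on both sides of the 30 kb limit. Just inside it, maker-Chr8-exonerate_est2genome-gene-72.25 with a gap of 30.02 kb had no counts. Also just inside were maker-Chr2-exonerate_est2genome-gene-236.0, with 3.503, 3.76 and 3.85 CPM in WT and 13.5, 14.3 and 14.4 CPM in lhp1ab, and maker-Chr11-exonerate_est2genome-gene-226.8, with 7 to 8 counts per WT library and 11 to 18 per lhp1ab library. Just outside lay the neighbours maker-Chr11-exonerate_est2genome-gene-119.39 and maker-Chr11-exonerate_est2genome-gene-119.60, separated by 29.98 kb and both without counts. Of maker-Chr2-exonerate_est2genome-gene-147.31, with a gap of 29.95 kb, the deeper WT libraries held 204 to 227 counts and the lhp1ab libraries 190 to 249. With depth taken into account this gene was called higher in lhp1ab (log2 fold change 0.42, edgeR adjusted p = 0.00287).

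Some isolated genes were among those with the most exons. Of 88 genes with 30 or more exons among all 28299, 2 were among the 434 isolated genes, too few to set these apart. Both were lower in lhp1ab, as were 38.5% of all tested genes. The 60-exon maker-Chr5-exonerate_est2genome-gene-164.5 (chromosome 5, 16372938 to 16429698) had 159, 182 and 150 CPM in the WT libraries against 67.2, 118 and 123 CPM in lhp1ab (log2 fold change -0.62, SE 0.17, edgeR adjusted p = 0.00754). The 33-exon maker-Chr10-exonerate_est2genome-gene-100.25 (chromosome 10, 9963508 to 9998822) had 39.6, 45.4 and 39.2 CPM in WT against 19.9, 30.03 and 36.6 CPM in lhp1ab (log2 fold change -0.48, SE 0.16, edgeR adjusted p = 0.0186). In both genes the mutant libraries spread more than the WT libraries, and lhp1ab replicate 1 was the lowest.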

How the data were processed

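RNA was measured in 6 leaf libraries, 3 per genotype. The authors deposited raw read counts per gene, made with featureCounts 1.6.4 over exons, reverse-stranded (setting 2), at a minimum mapping quality of 30, per the file headers. The headers also allow multi-mapping and multi-gene reads, but the minimum mapping quality applied to these reads too. The submitters' processing notes name Trimmomatic 0.38, STAR, DESeq2 and R 3.5.1. Depth was 15335390 to 22366054 counts per library.

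Gene spans were taken from the files. All genes were fitted with edgeR 4.0.16 in R 4.3.3 (quasi-likelihood F-test, TMM, default low-count filter, no covariates), which was also tested on simulated data. A standard error is the absolute log2 fold change over the root of the F statistic. Silence and detection used 1 random thinning to 15335390 counts. Single values per library were compared by exact permutation tests (scipy 1.17.1). DESeq2 1.42.0, limma-voom 3.58.1, other scalings, filters, gap limits and left-out libraries were the alternatives.

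Named genes were the 6 largest rises and 6 largest falls among called isolated genes with at least 5 CPM in the higher genotype and no overlap, the 6 with the highest RPKM, the 4 most isolated, the 4 most isolated with at least 10 thinned counts in every library, up to 5 switched on or off, and 3 genes on each side of the 30 kb limit. Members, lists and comparisons were chosen with earlier results of these data known. No identifier occurred in the reference table of 28628 genes, so no gene names or sequences were used here.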

Additional observations from a re-analysis of the deposited data

How the results depend on the processing

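In other fits 128 to 140 isolated genes were called, and 126 to 142 with a library left out. Against a change of 1.5-fold 76 passed, 46 higher and 30 lower. The called share of tested isolated genes was 62.8% with DESeq2 and 61.4% without the filter, where 204 and 228 were tested, 43.9% against 1.5-fold, and 72.4% to 81.6% with a library left out. For crowded genes it was 62.4% with DESeq2, 62.9% without the filter and 36.9% against 1.5-fold. The higher called share of isolated than of crowded genes was thus nearly gone with DESeq2 and turned without the filter. The share of higher genes among calls of isolated genes lay between 51.4% and 60.5%. With the replicate block 133 were called, and the block changed no call of a named gene. Deviations of same-numbered libraries correlated at r = 0.00031, 0.118 and -0.184, and those of differently numbered ones at -0.283 to 0.266. So few values cannot tell whether same-numbered libraries shared a batch, and the labels link them by the number only. The median log2 fold change of isolated genes was 0.085 with RLE, 0.0026 with library totals, 0.10 with DESeq2, 0.032 without the filter, 0.032 at a 20 kb gap, and 0.025 to 0.085 with a library left out. Over all tested genes the median was 0.0081 with RLE, -0.070 with library totals, 0.018 with DESeq2 and -0.013 without the filter. With the scaling, both medians moved in the same direction. At 50 kb the median of isolated genes was 0.78, with 56.5% higher and 21.7% lower, where all tested genes had 36.9% and 38.5%.

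Of isolated genes, 60.6% in either genotype were under 10 counts, and 50% had no thinned counts in lhp1ab. Silent were 72.8% of single-exon and 41.4% of other isolated genes in WT, 74.0% and 42.5% in lhp1ab, and 59.7% at 50 kb in WT. By the larger gap, 11.9% of genes up to 1 kb were silent. The difference in detected genes reversed to -1.67 without thinning and -2.33 at 1 count. The difference in read share reversed to 0.0721 points at 20 kb, 0.0475 at 50 kb, 0.0570 without the most abundant and 0.0628 without the 10 most abundant isolated genes, the last pair chosen after seeing the data. Median RPKM in WT was 10.3 without thinning, 7.82 at 1 count, 11.8 at 20 kb and 7.82 at 50 kb, with a median CPM of 18.4. In lhp1ab it was 7.71 at 1 count and 12.8 at 50 kb, with 20.6 CPM. At 20 kb 3 genes were switched on and 1 off, and with a library left out 0 to 2 were on. At 50 kb 44.8% had a single exon and 66.7% of 12 called neighbour pairs went one way. A 2 Mb window held up to 12 isolated genes. The causes were not tested, beyond fewer or more genes meeting each limit. Of 322 refitted values of named genes 317 kept direction and side of the threshold. Depth limits genes near 3 counts.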

Other observations

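Some isolated genes were next to each other. The rule itself favours this, because neighbours share the gap between them, and a gap beside an isolated gene already reaches 30 kb. Runs of 2 or more consecutive isolated genes numbered 71 and held 172 of the 434 genes, and 20 runs held 3 or more. The longest runs, with 5 genes each, lay on chromosome 8 from 17594755 to 17792130 (197 kb) and on chromosome 10 from 19817389 to 20068683 (251 kb). In the chromosome 8 run 4 genes were silent in both genotypes, and the fifth, maker-Chr8-exonerate_est2genome-gene-176.9, was abundant and not called, with 99.8 CPM in WT and 106 CPM in lhp1ab (log2 fold change 0.14, edgeR adjusted p = 0.176). In the chromosome 10 run 2 genes had no counts and the 3 tested ones were all lower in lhp1ab, with log2 fold changes of -0.60, -2.30 and -0.31. A run of 4 on chromosome 3, from 10120520 to 10304616, held 3 tested genes that were all higher. Of these, maker-Chr3-exonerate_est2genome-gene-102.0 rose from 35 to 75.05 CPM and its neighbour maker-Chr3-exonerate_est2genome-gene-102.1, 41.2 kb away, from 39.8 to 80.6 CPM, while maker-Chr3-exonerate_est2genome-gene-101.30 had 4 to 12 counts per WT library and 9 to 19 per mutant library. A run of 3 on chromosome 2, from 20764615 to 20884638, held 1 higher and 2 lower genes. These runs were picked after their values were seen.

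Over all isolated genes, neighbours shared a direction about as often as not. Of 107 called isolated genes whose nearest tested gene was called too, 51 (47.7%) went the same way as that neighbour, at a median distance of 46.1 kb from a tested isolated gene to it. Of crowded genes it was 59.2%, at a median distance of 0.783 kb, and 54.8% without overlapping genes. With a gap limit of 20 kb the share of isolated genes was 57.2%, close to that of all genes (57.9%), so the distance from crowded genes moves with the limit. The nearest tested genes, which were not always the nearest genes, were called in the opposite direction for 3 of the 6 rises and 4 of the 6 falls described above. Of the 836 genes that flank an isolated gene, 172 were isolated themselves, and 52.9% of the other 664 were silent in both genotypes. Flanking genes were silent in 54.3% of cases beside silent isolated genes and in 49.0% beside the others.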
